A study of Mus musculus with 2 samples.

Results

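The 40 genes described here were a listed set of proliferation genes, 21 of S phase and 19 of mitosis, and all 40 were found by symbol among 55536 annotated genes, 22015 of them protein-coding genes of the nuclear genome. Members were taken by symbol from that list, with no threshold on their values. Nucleoplasmic RNA, that of the soluble nuclear fraction, came from macrophages grown from the bone marrow of C57BL/6J mice. The cells had received Lipid A, the part of bacterial lipopolysaccharide that Toll-like receptor 4 senses, at 100 ng/ml for 60 min. The labels give 1 group of 2 biological replicates with the same donor label, so their spread may understate that between animals. The starting amount of RNA was 1 µg in replicate 1 but 500 ng in replicate 2, a difference that every spread given here includes, and with no second group no test was possible. The labels give neither age nor sex, and no untreated cells were analysed here, so no effect of Lipid A can be read from any level given.

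Genes of S phase build and fire replication origins, copy DNA and supply nucleotides, and E2F transcription factors switch many of them on at the end of G1. Genes of mitosis condense chromosomes, build the spindle and time chromosome separation, and many are switched on later through the cell cycle homology region (CHR), an element bound by the MuvB complexes, often near a CCAAT box bound by NF-Y. Macrophages in culture divide in response to the growth factor CSF1, and inflammatory stimuli are known to slow this division. In bulk RNA, fewer cycling cells and less RNA per cycling cell cannot be told apart.

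Promoter windows from RefSeq (GRCm38.p6, 250 bases before to 50 bases after each gene start, 300 bases in all) were available for 33 of the 40 genes, in 34 windows because Mcm7 has 2. Aurkb, Mcm4, Ccna2, Gins2, Foxm1, Pole and Ccne2 had no entry. Windows were searched on both strands for 4 forms of the E2F motif, which were TTCCCGC as the first, TTCGCGC as the next, then TTGCCGC and lastly TTGGCGC. They were also searched for the CHR, spelled TTTGAA, and for the CCAAT box. Windows are shown for the 2 most abundant genes, Mki67 and Pcna. Those of Cdk1, which like Mki67 held both the E2F motif and the CHR, and of Mcm6, rich in E2F motifs, are added. None of these windows shows the CHR without an E2F motif, a pattern found in Top2a among other mitosis genes. All 4 genes lie on the minus strand, and each window is printed 5′ to 3′ along the gene, with matches in capitals. The positions are chr7:135716330-135716629 for Mki67, chr2:132253131-132253430 for Pcna, chr10:69352863-69353162 for Cdk1 and chr1:128359656-128359955 for Mcm6.
Mki67: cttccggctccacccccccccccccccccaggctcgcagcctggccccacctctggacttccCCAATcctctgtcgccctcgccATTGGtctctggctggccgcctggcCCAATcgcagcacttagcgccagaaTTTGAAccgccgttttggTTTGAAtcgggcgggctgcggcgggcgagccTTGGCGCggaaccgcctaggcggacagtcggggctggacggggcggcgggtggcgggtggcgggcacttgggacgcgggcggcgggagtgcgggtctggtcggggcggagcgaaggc
Pcna: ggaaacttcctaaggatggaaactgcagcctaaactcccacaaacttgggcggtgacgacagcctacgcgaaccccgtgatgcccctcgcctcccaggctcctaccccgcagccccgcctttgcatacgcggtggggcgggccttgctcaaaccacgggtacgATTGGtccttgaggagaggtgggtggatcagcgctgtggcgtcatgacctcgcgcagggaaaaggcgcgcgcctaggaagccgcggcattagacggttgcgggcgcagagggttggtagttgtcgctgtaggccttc
Cdk1: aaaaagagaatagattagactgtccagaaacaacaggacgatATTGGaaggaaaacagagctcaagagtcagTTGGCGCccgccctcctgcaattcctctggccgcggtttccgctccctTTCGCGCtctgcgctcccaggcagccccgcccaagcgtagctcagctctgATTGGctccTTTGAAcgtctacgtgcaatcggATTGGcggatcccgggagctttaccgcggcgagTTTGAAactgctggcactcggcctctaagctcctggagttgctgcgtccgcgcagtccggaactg
Mcm6: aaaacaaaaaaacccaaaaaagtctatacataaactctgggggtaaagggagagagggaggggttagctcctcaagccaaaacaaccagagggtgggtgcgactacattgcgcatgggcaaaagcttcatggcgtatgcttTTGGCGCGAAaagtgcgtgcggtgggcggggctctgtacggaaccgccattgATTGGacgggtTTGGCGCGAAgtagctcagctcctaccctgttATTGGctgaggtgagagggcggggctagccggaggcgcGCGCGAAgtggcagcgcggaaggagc

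The E2F motif stood in 12 of 18 S phase windows (66.7%) and in 3 of 16 mitosis windows (18.8%), against 9.57% of all 32851 windows in the table. The CHR showed the opposite split, with 1 of 18 S phase windows (5.56%), 12 of 16 mitosis windows (75.0%) and 17.9% of all windows. CCAAT was found in 11 S phase windows (61.1%), 15 mitosis windows (93.8%) and 37.4% of all windows. These shares describe letters in a window and are not sites of binding.

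Mki67 and Cdk1 were the only members that held both the E2F motif and the CHR, a combination present in 0.953% of all windows. Counted from the gene start, with bases before it negative, the CHR of Mki67 began at -116 and -98, the CCAAT boxes at -188, -166 and -141 and the E2F motif at -67. In Cdk1, which encodes the kinase that drives entry into mitosis, the CHR began at -71 and -15 and the E2F motifs at -178 and -130. Mcm6, a subunit of the replicative helicase, held 5 E2F matches, among them overlapping pairs in the stretch TTGGCGCGAA, which reads as TTGGCGC and, on the other strand, as TTCGCGC. Pcna held neither the E2F motif nor the CHR in this window and 1 CCAAT box, at -87. The single S phase window with a CHR was that of Mcm2, and the mitosis gene with an E2F motif and no CHR was Ccnb1. Neither motif was found in the windows of Ccne1, E2f1, Tk1 and Tyms among the other S phase genes, nor in those of Birc5, Bub1 and Cenpe among the mitosis genes.

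**Figure D1:**
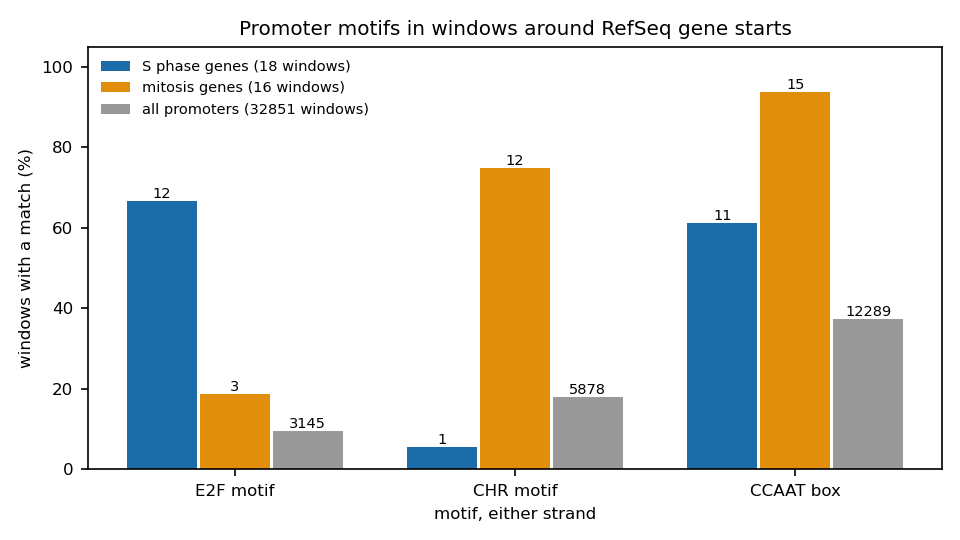
Share of promoter windows (%) with the E2F motif, the CHR or a CCAAT box on either strand, in S phase genes (18 windows), mitosis genes (16 windows) and all 32851 windows, with the number of windows above each bar. The E2F bar is tallest for S phase genes (66.7%) and the CHR bar for mitosis genes (75.0%).

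The libraries held 21115765 and 15607391 expected counts on annotated genes in replicates 1 and 2. The macrophage label was checked against 8 marker genes, all of which had at least 10 TPM (a transcript's share of the library after correction for length) in both libraries. Lymphoid and erythroid markers summed to 9 and 6 counts over 8 genes, and Cd3d, Cd3e, Cd3g and Hbb-bt were at 0 in both. Of 8 markers of early myeloid progenitors, cells that cycle in the marrow, Kit reached 1.94 and 1.24 TPM while the median of the list was 0.06 and 0.06 TPM. The progenitor markers Elane, Prtn3 and Ctsg each had 1 count in replicate 1 and 0 in replicate 2, and Ms4a3 was at 0 in both. Flt3 had 28 and 20 counts, Mpo 6 and 13 counts and Cd34 2 and 4 counts.

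Of the 40 proliferation genes, 16 (40%) had at least 1 TPM in both libraries, against 39.2% of all protein-coding genes. That closeness depended on the scaling: at the same threshold, 26 members (65%) against 45.4% of those genes passed in CPM, the count scaled to the library total without length correction. With TPM rescaled over protein-coding genes it was 35 members (87.5%) against 49.0%. At 10 TPM, the number was 3 (Mki67, Pcna and Cdt1), where the background was 14.4%. No member was at 0 in either library, and the lowest had 3 counts. A further 3 genes reached 1 TPM in 1 library alone and 21 in neither. Most of the set therefore rests on few reads: 22 of 40 genes had a mean under 50 counts and 10 had 20 counts or fewer in both libraries.

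**Figure D2:**
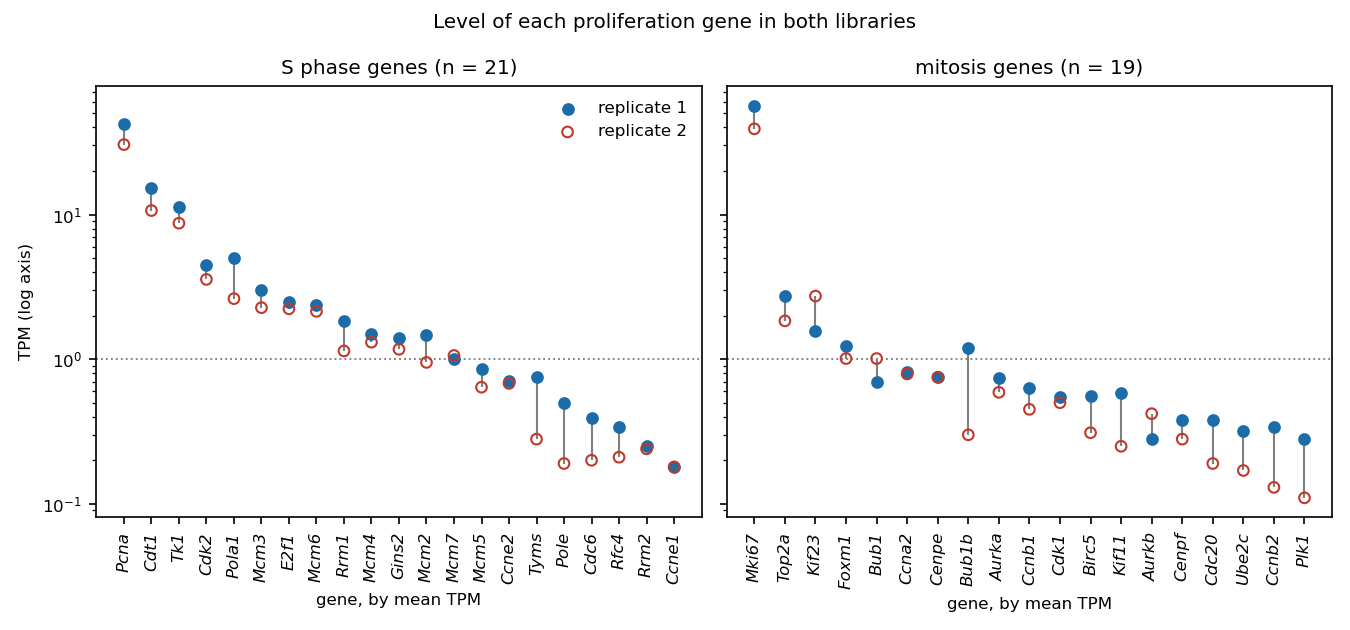
TPM (log axis) of each of the 21 S phase genes and 19 mitosis genes in replicate 1 (filled) and replicate 2 (open), ordered by mean, with a dotted line at 1 TPM. Mki67 and Pcna stand above 30 TPM in both libraries, and all mitosis genes other than Mki67 lie under 3 TPM.

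Mki67 and Pcna stood apart from the rest. Mki67, which encodes the chromosome surface protein Ki-67 used as a marker of cycling cells, had 56.59 and 39.09 TPM from 13339 and 8240 counts. It ranked 841 and 864 among all protein-coding genes by TPM, and 176 and 194 by CPM. Its transcript is long, and it alone held 73.4% (Wilson 95% interval 72.8 to 74.1) and 71.2% (70.3 to 72.0) of the counts of the 40 genes. On the log2(TPM + 1) scale it lay 5.04 and 4.58 above the median of all other members, Pcna included, a difference of 4.81 ± 0.33 (SD, n = 2).

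Pcna encodes the sliding clamp that holds DNA polymerases on their template and that also serves DNA repair. It had 42.31 and 30.42 TPM from 1008.80 and 731.88 counts, which was 5.56% (5.23 to 5.90) and 6.32% (5.89 to 6.78) of the counts of the set. It lay 4.63 and 4.23 above the median of all other members, Mki67 included, a mean of 4.43 ± 0.29 on the log2(TPM + 1) scale (SD, n = 2). Mki67 exceeded Pcna 1.34-fold and 1.29-fold in TPM in the gene table, but in a second transcript table deposited for the same libraries the ratio was 0.974 and 0.912, so the order of the pair turned with the table. Both stood above every other member in both tables. On the opposite strand, Mki67 (chr7:135689784-135716361, minus strand, mm10) is overlapped by Gm45240, and without a known strand setting reads of the pair cannot be told apart. Pcna (chr2:132249162-132253314, minus strand) has no such partner.

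S phase genes were higher than mitosis genes. Their median was 1.47 and 1.14 TPM, against 0.63 and 0.45 TPM for mitosis genes and 0.28 and 0.22 TPM for all protein-coding genes. On the log2(TPM + 1) scale the S phase median exceeded the mitosis median by 0.60 and 0.56, a difference of 0.58 ± 0.03 (SD, n = 2) that was larger than the spread between replicates. At least 1 TPM in both libraries was reached by 12 of 21 S phase genes (57.1%) and by 4 of 19 mitosis genes (21.1%), beside the 39.2% of all protein-coding genes. The place of mitosis genes against that background turned with the scaling. In CPM, 17 S phase genes (81.0%) and 9 mitosis genes (47.4%) passed, and with rescaled TPM 19 (90.5%) and 16 (84.2%), against 45.4% and 49.0% of all protein-coding genes. Of the S phase genes, 15 lay above the mitosis median in both libraries, and of the mitosis genes 3 lay above the S phase median in both. Without Pcna and Mki67 the medians were 1.44 and 1.10 TPM for S phase and 0.60 and 0.43 TPM for mitosis. Among members with at least 1 TPM in both libraries the difference was 0.27 in replicate 1 and -0.0021 in replicate 2, or 0.13 ± 0.19 (SD, n = 2), which was within the spread.

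Among the factors that load and run the replication fork, Cdt1 was the highest after Pcna. Cdt1 brings the MCM helicase to origins and had 15.15 and 10.65 TPM, from 618 and 437 counts, while its loading partner Cdc6 had 0.39 and 0.20 TPM from 25 and 16 counts. Pcna exceeded Cdt1 2.79-fold and 2.86-fold. Pola1, the catalytic subunit of the polymerase that starts each strand with primase, had 5.02 and 2.62 TPM. Pole, the catalytic subunit of the leading-strand polymerase, had 0.50 and 0.19 TPM, which put Pola1 above it with TPM ratios of 10.04 and 13.8. The second table narrowed that ratio to 3.17 and 2.86. Rfc4, a subunit of the clamp loader that places PCNA on DNA, had 7 and 5 counts (0.34 and 0.21 TPM), with exact 95% Poisson intervals of 2.81 to 14.4 and 1.62 to 11.7 counts.

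The 6 MCM genes, which encode the ring of the replicative helicase, kept close together, with medians of 1.49 and 1.19 TPM. They ranged between 0.86 and 3.01 TPM in replicate 1 and between 0.64 and 2.27 TPM in replicate 2. By gene-table TPM, Mcm3 was the highest, from 122 and 108 counts, and Mcm5 the lowest, from 41 and 29 counts. Mcm3 exceeded Mcm5 3.50-fold and 3.55-fold in that table and 2.41-fold and 2.00-fold in the second table, where Mcm7 was the lowest in replicate 1 and Mcm6 the highest in replicate 2. Gins2, a subunit of the GINS complex that joins MCM at the active fork, had 1.40 and 1.17 TPM. Its count of 120.59 and 93.63 carried a posterior SD of 15.72 and 12.25, the only member whose posterior SD reached 2 counts in both libraries, and it overlaps Gse1 on the opposite strand.

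Genes of nucleotide supply differed widely. Tk1, the cytosolic thymidine kinase of the salvage pathway, had 11.28 and 8.71 TPM from 312 and 212 counts. Tyms, which makes thymidylate from scratch, had 0.75 and 0.28 TPM from 33 and 12 counts. Tk1 thus exceeded Tyms 15.0-fold and 31.1-fold, a gap that narrowed to 2.68-fold and 3.72-fold in the second table. The large subunit of ribonucleotide reductase, Rrm1, had 1.85 and 1.14 TPM. Rrm2, its small subunit of S phase, had 0.25 and 0.24 TPM from 9 and 11 counts, so Rrm1 exceeded Rrm2 7.40-fold and 4.75-fold, or 18.5-fold and 25.9-fold in the second table.

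Of the regulators of S phase entry, Cdk2, the kinase partner of cyclins E and A, had 4.51 and 3.56 TPM, and E2f1, an activating E2F, had 2.47 and 2.23 TPM. The cyclins E that activate CDK2 were lower. Ccne2 had 0.71 and 0.68 TPM, and Ccne1 had 0.18 and 0.18 TPM from 8 and 4 counts, with exact Poisson intervals of 3.45 to 15.8 and 1.09 to 10.2 counts. Cdk2 exceeded Cdk1, the mitotic kinase, 8.20-fold and 7.12-fold in the gene table. In the second table the ratio was 0.662 and 0.80, so this order too depended on the table.

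By mean TPM in the gene table, the highest mitosis genes after Mki67 were Top2a, Kif23 and Foxm1. In the second table Kif23 had 14.1 and 11.6 TPM, above Top2a with 2.60 and 2.50 TPM. Cdk1, Birc5 and Ube2c there exceeded Foxm1, which had 0.81 and 0.68 TPM, so this order depended on the table. Top2a, which untangles sister chromosomes, had 2.75 and 1.84 TPM from 232 and 149 counts, and Mki67 exceeded it 20.6-fold and 21.2-fold, or 8.66-fold and 8.71-fold in the second table. Kif23, a kinesin of the central spindle in cytokinesis, had 1.56 and 2.73 TPM from 92 and 92 counts. At equal counts, its TPM rested on an effective length of 2420 bases in replicate 1 and 1450 bases in replicate 2. Foxm1, a transcription factor for genes of G2 and mitosis, had 1.24 and 1.01 TPM from 78 and 61 counts, and E2f1 exceeded it 1.99-fold and 2.21-fold.

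The cyclins of mitosis were low. Ccna2, the cyclin of S phase and G2, had 0.81 and 0.79 TPM, and Ccnb1, the main cyclin B, had 0.63 and 0.45 TPM from 15 and 11 counts. Cdk1 had 0.55 and 0.50 TPM from 19 and 21 counts. Ccnb2, the other cyclin B, had 0.34 and 0.13 TPM from 11 and 4 counts.

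None of the 5 mitotic kinase genes (Aurka, Aurkb, Plk1, Bub1 and Bub1b) had 1 TPM in both libraries, and their median was 0.69 and 0.42 TPM. Plk1, which acts at many steps of mitosis, was the lowest of the mitosis genes by mean TPM, with 12 and 5 counts (0.28 and 0.11 TPM) and Poisson intervals of 6.20 to 20.96 and 1.62 to 11.7 counts. The spindle checkpoint kinases were Bub1, with 0.69 and 1.01 TPM from 25 and 15 counts, and Bub1b, with 1.19 and 0.30 TPM from 58 and 24 counts. By count Bub1b was above Bub1 in both libraries; in replicate 2 the TPM of Bub1 rested on an effective length of 642 bases, against 1493 bases in replicate 1. Cenpe, a motor at the kinetochore, had 0.75 and 0.75 TPM, while the kinetochore protein Cenpf had 0.38 and 0.28 TPM and the spindle motor Kif11 had 0.58 and 0.25 TPM.

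Genes of chromosome separation were the lowest role in the gene table, with a median of 0.38 and 0.19 TPM. Cdc20, an activator of the anaphase-promoting complex, had 9 and 7 counts, and Ube2c, a ubiquitin-conjugating enzyme of that complex, had 6 and 3 counts, with Poisson intervals of 2.20 to 13.1 and 0.619 to 8.77 counts. Birc5, which encodes the passenger protein survivin, had 20 and 6 counts (0.56 and 0.31 TPM). At these depths the order within the group was not resolved. The second table gave 1.71 and 1.73 TPM to Birc5 and 1.37 and 0.90 TPM to Ube2c, but 0.18 and 0.10 TPM to Cdc20. The lowest place of this role therefore holds for the gene table and not for the second.

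The transcripts behind these levels differed in type. Of the 18 members with a mean count of at least 50, the median protein-coding share of the gene's TPM was 79.6% and 70.4%, against 74.1% and 75.2% over 8663 protein-coding genes at that count. In the second table the members lay further from that background, with 49.0% and 45.2% against 63.1% and 60.3%. By expected counts of the first table they lay above it, with 94.1% and 93.7% against 89.3% and 89.8%. The place of the members against the background therefore turned with the measure. Mki67 has 2 annotated transcripts, both protein-coding, and Mki67-201 (10061 bases) held 55.49 and 35.92 TPM, while its other, short transcript (575 bases) held 1.10 and 3.16 TPM. Pcna divided between types, with 50.3% and 59.6% of its TPM on protein-coding transcripts and 45.9% and 40.4% on transcripts annotated as retained introns. In the second table its protein-coding share was 29.8% and 31.8%, below the retained-intron share of 45.9% and 38.4%. Its full coding transcript, Pcna-201, had 21.30 and 18.13 TPM, and the retained-intron form Pcna-204 had 10.69 and 6.47 TPM.

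The lowest mean protein-coding share at that count was that of Tk1, with 14.9% and 12.7%, and the other 85.1% and 87.3% lay on retained-intron transcripts. Cdt1 had 41.9% and 39.9% of its TPM on protein-coding transcripts, and Gins2 34.3% and 0%. These 3 genes, or 16.7% of 18, were the members below 50% in both libraries, where the share over all such genes was 18.2%. In all 3, more of the first table's TPM lay on transcripts annotated with retained introns than on protein-coding ones, in both libraries. By expected counts Cdt1 was near even in replicate 1, with 49.6% protein-coding and 50.4% retained-intron. The annotation names a transcript model, and the splicing state of the nuclear RNA behind these reads was not tested. Tk1 is overlapped by Afmid and Gm20708 on the opposite strand, Cdk2 by Pmel, and Cdt1 by another annotated gene on its own strand, and how reads were shared with these genes was not tested. Among mitosis genes of that count, none lay below 50% in both libraries in the first table. In the second table, below 50% lay 9 of the 18 members, 6 of S phase and 3 of mitosis (Top2a, Kif23 and Foxm1). The share of all protein-coding genes below 50% was not computed for that table, so this count cannot be set against a background.

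**Figure D3:**
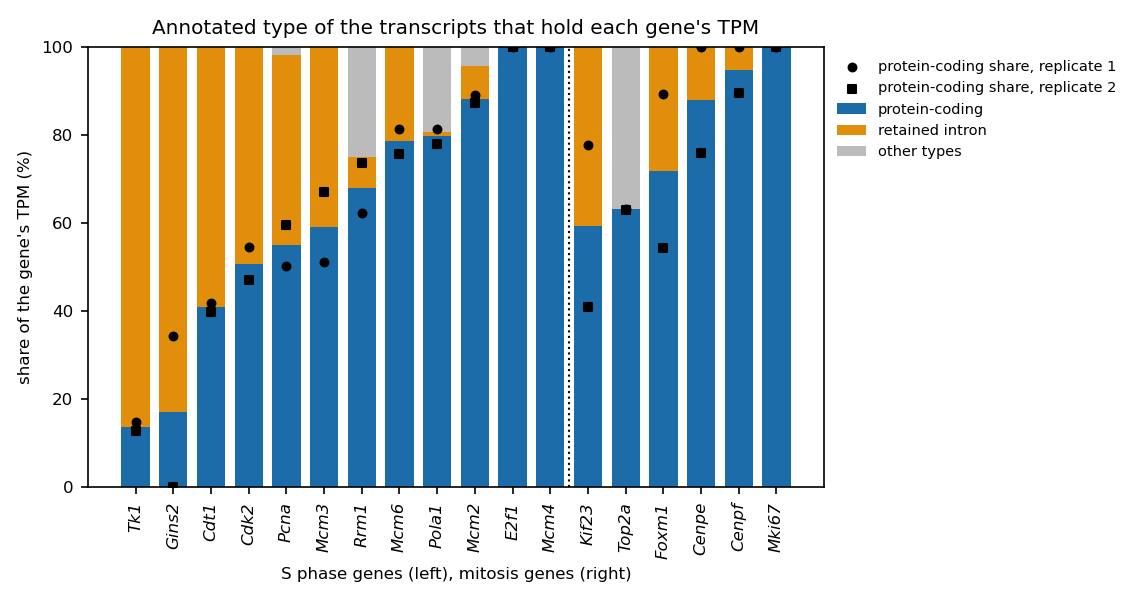
Share (%) of each gene's TPM on transcripts annotated as protein-coding, retained intron or another type (bars, mean of both libraries), with the protein-coding share of each library as points, for 12 S phase genes (left) and 6 mitosis genes (right) with a mean of at least 50 counts. Tk1, Gins2 and Cdt1 lie below 50% in both libraries, and Mki67 is at 100%.

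The replicates were set side by side after normalisation. The log2 ratio of replicate 2 over replicate 1 had a median of 0.04 over the 18 members with a mean of at least 50 counts, and ranged between -0.55 for Pola1 and 0.49 for Kif23. No member of the 18 was beyond 2-fold, against 1.18% of all 10088 genes at that count. The median size of the ratio was 0.14 for members and 0.18 for all genes, but 0.26 and 0.20 in the second table. Ratios below 0 there were found for 11 of 12 mitosis members and 8 of 15 S phase members, against 49.1% of all 16382 genes. With the gene table they were found for 3 of 6 and 5 of 12, against 49.9% of all genes. Mki67 had a ratio of -0.20 and Pcna of 0.03. At a mean of at least 10 counts, 1 of 34 members was beyond 2-fold, against 620 of all 14004 genes. That member was Birc5, with a ratio of -1.17 from 20 and 6 counts.

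The second transcript table gave more counts to most members. Its estimated counts over the expected counts of the gene table had a median of 1.54 and 2.07 for the members and of 1.37 and 1.70 for protein-coding genes with at least 3 counts. At least 3-fold more in both libraries was found for 8 of 40 members (20.0%), against 10.4% of those genes. They were Tyms, Pole, Rrm1 and Ccne1 of S phase and Birc5, Ube2c, Cdk1 and Kif23 of mitosis. The ratio was highest for Birc5 (20.3 and 57.0) and Tyms (18.2 and 36.2). For Kif23, most of the excess was on 1 processed transcript of 632 bases with 12.63 and 9.64 TPM in the second table and 0 in the first. Of the 8 genes, 6 have no gene on the opposite strand, as have 24 of all 40 members, and the source of the excess was not tested. The second table also gave 300 and 382 counts to Cd3d, a T cell gene at 0 in the gene table. Where a statement on these 8 genes rests on their low level, it holds for the gene table.

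**Figure D4:**
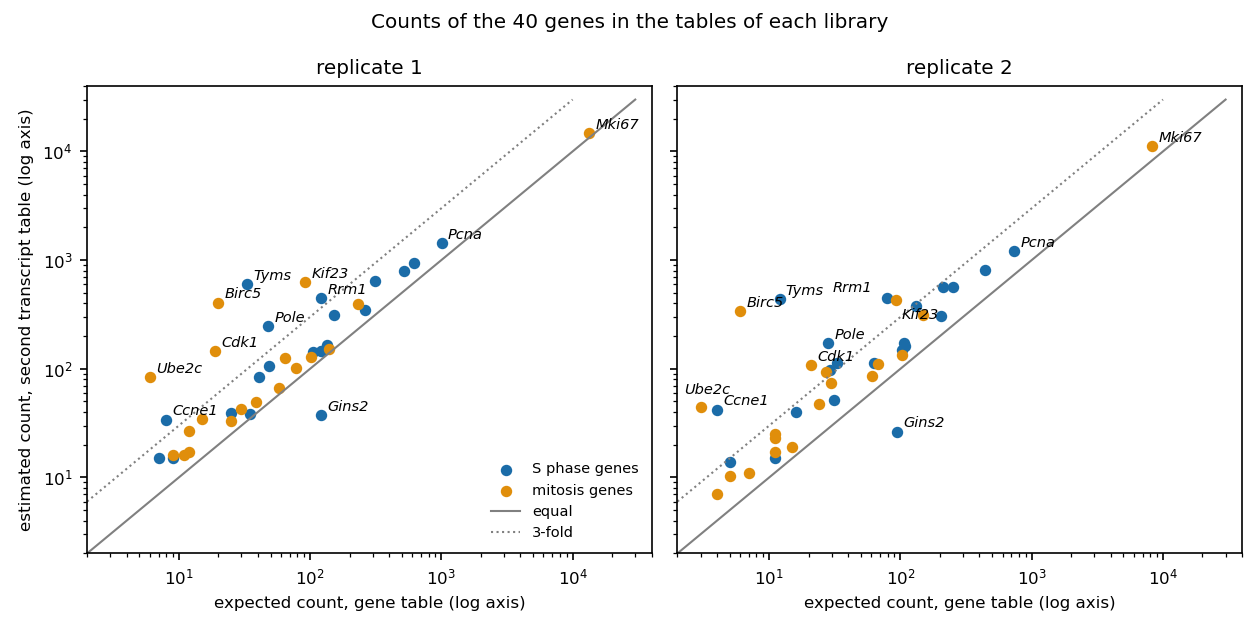
Estimated count of each member in the second transcript table against its expected count in the gene table (log axes) in replicates 1 and 2, with lines for equal counts and for a 3-fold excess. Birc5, Tyms, Ube2c, Cdk1, Kif23, Pole, Rrm1 and Ccne1 lie above the 3-fold line in both libraries, and Gins2 lies below the line of equal counts.

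Other genes of the same pathways showed the same ordering of levels, as a description of lists chosen with earlier results known. Of 42 other replication genes, 20 (47.6%) had at least 1 TPM in both libraries, beside 39.2% of all protein-coding genes, with a median of 1.18 and 1.09 TPM. The highest were Orc4, a subunit of the origin recognition complex, with 19.89 and 19.20 TPM, Rfc2 of the clamp loader with 21.96 and 14.57 TPM, and Pold3, a subunit of the lagging-strand polymerase, with 17.93 and 14.02 TPM. Of 42 other mitosis genes, 11 (26.2%) reached that level, beside the same 39.2%, with a median of 0.69 and 0.38 TPM. CPM and rescaled TPM, which moved these shares for the members, were not run for these lists. Mad2l1 of the spindle checkpoint had 17.05 and 13.28 TPM, the centromeric histone gene Cenpa 15.83 and 14.19 TPM, and the condensin gene Smc4 12.19 and 9.81 TPM, all above every mitosis member but Mki67 in the gene table.

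The promoter split was also seen in these lists. The E2F motif stood in 55.3% of 47 windows of the other replication genes and 24.3% of 37 windows of the other mitosis genes. Over all windows its share was 9.57%. For the CHR the shares of these lists were 17.0% and 67.6%, against 17.9% of all windows. The other replication genes were thus near that background. Of 19 regulators of the E2F, RB and DREAM families, 14 (73.7%) had at least 1 TPM in both libraries, beside 39.2% of all protein-coding genes. Their median was 3.44 and 3.66 TPM. Rb1, the retinoblastoma protein that restrains activating E2Fs, had 24.49 and 19.11 TPM, the repressor E2f8 had 20.19 and 12.69 TPM, and E2f4, an E2F of DREAM, had 9.09 and 9.36 TPM. E2f8 thus stood above E2f1 (2.47 and 2.23 TPM) in both libraries, while its relative E2f7 had 0.17 and 0.07 TPM in the gene table and 10.5 and 9.95 TPM in the second table.

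**Figure D5:**
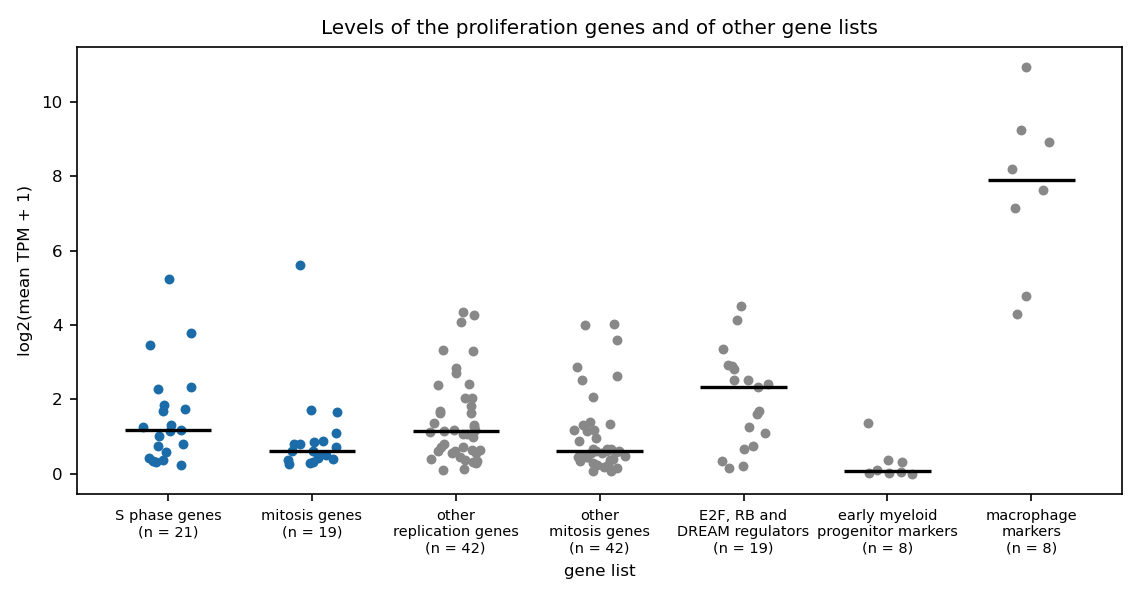
Level of each gene as log2(mean TPM + 1) in the S phase and mitosis genes (blue) and in lists of other genes (grey), with the median of each list as a bar. Mki67 and Pcna are the highest blue points, the progenitor markers other than Kit lie near 0 and the macrophage markers lie above all medians of the other lists.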

How the data were processed

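Total RNA depleted of ribosomal RNA was sequenced from the nucleoplasmic fraction, per the labels' protocols. The authors deposited, per library, a gene table and a transcript table with expected counts, TPM and the posterior SD of the count, and a second transcript table with estimated counts and TPM, made on mm10 with GENCODE M21 per the file headers. Which aligner and quantifiers were used, and whether counting used strand, is not given in the sources used here. Members were matched by gene ID, and second-table values were summed per gene. The deposited expected counts were rounded to whole numbers for replicate ratios only, normalised by TMM in edgeR 4.0.16 (R 4.3.3), with 0.5 added and a mean count of at least 50. This step was tested on simulated data. DESeq2 1.42.0 size factors served as an alternative. Levels are TPM or log2(TPM + 1). Other steps used Python 3.11.15 with pandas 2.3.3 and scipy 1.17.1.

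The members and lists were chosen with earlier results of these data known. Values are printed for Mki67, Pcna, the 3 highest and 3 lowest others of each class, any under 3 counts in both libraries, any with a replicate log2 ratio beyond 1, and the lowest protein-coding share at a mean of at least 50 counts. Of each other pathway list the 3 highest were named. Other members were given where they stand for a role. E2f7 and the progenitor, lymphoid and erythroid markers printed here, Kit and Cd3d among them, were named after their values were seen. Of 13 ratios between members computed, those that bear on a role are printed. Alternatives were a pseudocount of 0.1, the second table, CPM, TPM rescaled over protein-coding genes, filters on low values and leaving out each replicate. Intervals cover counting error only, since PCR copies were not told apart. Genes that overlap another gene or have near-identical copies are uncertain: 16 of 40 members, 8 of each class, have a gene on the opposite strand.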

Additional observations from a re-analysis of the deposited data

How the results depend on the processing

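The mean difference between the S phase and mitosis medians was above 0 under each alternative run, by differing amounts on the log2 scale, with replicate 2 at -0.0021 among members with at least 1 TPM. The difference was 1.14 with a pseudocount of 0.1, 0.51 in the second table, 1.42 in CPM, 1.01 with TPM rescaled over protein-coding genes, 0.13 among members with at least 1 TPM, and 0.54 among members with no gene on the opposite strand, an alternative chosen after seeing the data. The excess of Mki67 over the other members was 5.86, 3.80, 7.55, 5.66 and 3.84 under the first 5 of these settings, and that of Pcna was 5.47, 3.88, 3.97, 5.27 and 3.46. The count of 16 members with at least 1 was 26 in CPM and 35 with rescaled TPM, where the share of all protein-coding genes was 45.4% and 49.0%. The protein-coding share of Pcna, 55.0% as a mean, was 71.2% by expected counts and 30.8% in the second table. The median replicate ratio changed sign, to -0.0076 at a mean of at least 10 counts and -0.084 in the second table; the cause was not tested. With 1 replicate left out, the S phase difference was 0.56 to 0.60, the excess of Mki67 4.58 to 5.04 and of Pcna 4.23 to 4.63, the count 17 to 18, and the Pcna share 50.3% to 59.6%. Under 50 counts, single genes carry wide counting intervals. No paired analysis was possible because the libraries form 1 group.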
